A study of Mus musculus with 6 samples.

Results

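The complement genes described here are 8: C1qa, C1qb and C1qc, which encode the subunits of the C1q recognition molecule, the central component C3, the alternative pathway genes Cfb and Cfp, and the anaphylatoxin receptor genes C3ar1 and C5ar1. They were chosen by symbol in GENCODE release M21, and all 8 were found among the 24906 genes of the table. Spleen cells were taken from 6 C57BL/6J mice, all between 12 and 16 months old, and each sample gave 1 polyadenylated RNA library. The 3 D3TA mice carried an allele of the cyclin D3 gene Ccnd3, made with CRISPR/Cas9, in which alanine replaces threonine 283 (T283A), from a line kept as heterozygotes. The 3 WT mice were age-matched and lacked that change. D3TA mice of this age are described in the series record as having severe signs of myeloproliferative neoplasm, an overgrowth of myeloid blood cells. Nothing in the sources used here gives the sex of the mice or says whether tissue was pooled, and no step that limits the knock-in to blood cells is described.

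Complement is a protein cascade that tags microbes, dying cells and immune complexes for removal. C1q, ficolins and mannose-binding lectins recognise surfaces and start the classical and lectin pathways, the alternative pathway amplifies them through factor B (Cfb) and properdin (Cfp), and all of them cleave C3 and then C5. The fragments C3a and C5a act on the receptors encoded by C3ar1 and C5ar1, which draw and activate myeloid cells. Most plasma complement is made in the liver, but C1q comes mainly from tissue macrophages and dendritic cells and properdin from leukocytes, and the spleen is a main site where complement-coated particles are taken up.

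C5ar1 was the member with the clearest difference between the groups. Its reads were 5.16-fold more abundant in D3TA than in WT spleens, and the 3 D3TA libraries lay above the 3 WT libraries. The C1q subunit genes were among the abundant members, varied together across libraries, and did not separate the genotypes. C3 and Cfp also overlapped between the groups, and Cfb and C3ar1 were low in every library except D3TA-3. None of the 8 passed an adjusted p under 0.05 over all genes tested with limma, where the share of all 15564 tested genes called was 0%. At an unadjusted p under 0.05 there was 1 of the 8, C5ar1, where 9.91% of all genes were, a share near that of the members. On recovered reads edgeR and limma-voom called 0 of the 8, and DESeq2 called 1, again C5ar1, where it called 2.54% of its genes. Values are normalized read counts, that is reads divided by 1 size factor per library, and each difference is the D3TA mean of log2(normalized count + 1) less the WT mean, with limma's standard error (SE) and 95% interval. That scale can understate the change of low genes.

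**Figure D1:**
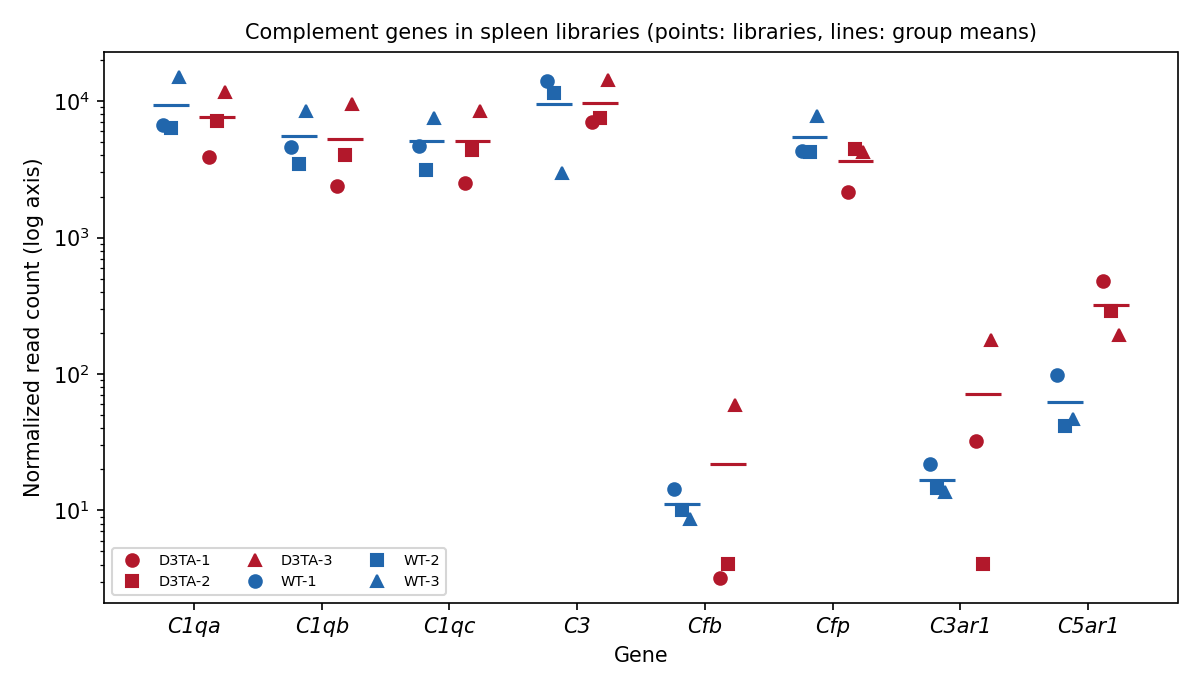
Normalized read counts of the 8 complement genes (log axis) in each library, D3TA in red and WT in blue, with lines at the group means. C5ar1 is the gene whose 3 D3TA points, from 194 to 480, all lie above the 3 WT points, from 41.4 to 97.4.

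Features other than genotype also varied among the libraries, which held 14944622 to 19456838 reads assigned to genes. Hemoglobin genes took 6.39% to 6.75% of reads in D3TA-1, D3TA-2 and WT-3, and 1.40% to 1.91% in the other 3. Y-linked reads, summed over Ddx3y, Eif2s3y, Kdm5d and Uty, were at 2355 in D3TA-3 and 2628 in WT-1, and at 0 to 20.1 in the others. Xist was at 8.64 in D3TA-3 and 4.78 in WT-1, and at 1195 to 10384 in the others. By these reads D3TA-3 and WT-1 have the pattern of male mice and the others that of females. WT-2 had 8449 genes at 0, against 3193 to 5170 in the others. Markers of the spleen's cells were present in every library: the 8 B cell markers summed to 10747 to 35527 in D3TA and 56877 to 69998 in WT, and the 13 red pulp macrophage markers to 21916 to 34768 and 31267 to 65126. These are measurements of mixed spleen cells, so fewer cells of a type and less RNA per cell cannot be told apart.

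The genes of C1q, the recognition molecule of the classical pathway, lie next to each other on chromosome 4 of GRCm38: C1qb (ENSMUSG00000036905) at 136880129 to 136886187, C1qc (ENSMUSG00000036896) at 136889804 to 136893065 and C1qa (ENSMUSG00000036887) at 136895917 to 136898803, all on the minus strand. The protein is built from A, B and C chains in equal numbers. Because these genes varied together, the 250 bases before the RefSeq start (GRCm38.p6) of the pair found in the promoter table are shown, 5′ to 3′, with matches to 6 searched motifs in capitals.

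C1qb, chr4:136886201-136886450, - strand: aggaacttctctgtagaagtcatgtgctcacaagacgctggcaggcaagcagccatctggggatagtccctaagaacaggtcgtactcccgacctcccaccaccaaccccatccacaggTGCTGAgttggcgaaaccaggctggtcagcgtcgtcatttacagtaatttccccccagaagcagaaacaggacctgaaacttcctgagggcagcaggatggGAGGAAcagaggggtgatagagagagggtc
C1qc, chr4:136892915-136893164, - strand: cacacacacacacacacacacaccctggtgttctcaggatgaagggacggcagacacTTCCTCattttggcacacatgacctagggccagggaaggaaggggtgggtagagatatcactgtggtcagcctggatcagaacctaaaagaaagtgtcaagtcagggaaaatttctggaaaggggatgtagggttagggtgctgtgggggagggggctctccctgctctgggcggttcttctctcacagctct

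The motifs searched on both strands were TGCTGA (a core bound by MAF factors), GAGGAA (the core bound by the myeloid factor PU.1), TTGCNNAA (C/EBP), GAAANNGAA (most of an interferon response element), GGANTTNCC (most of an NF-kappa-B site) and TATAAA. The C1qb window held TGCTGA from 131 to 126 bases before the start and GAGGAA from 30 to 25 bases before it. The C1qc window held GAGGAA on the opposite strand from 193 to 188 bases before the start. The GENCODE gene of C1qc runs to 136893065, so part of this window lies inside the annotated gene. Of 32851 windows of this length in the table, 16.1% held TGCTGA and 23.3% held GAGGAA, so a match is common and is a description only.

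In D3TA-1, D3TA-2 and D3TA-3, C1qa was at 3900, 7139 and 11762. In WT-1, WT-2 and WT-3 it was at 6718, 6367 and 15160. C1qb was at 2396, 4000 and 9500 in the D3TA libraries and at 4653, 3457 and 8419 in the WT libraries, in the same order. C1qc was at 2504, 4415 and 8414, and at 4729, 3121 and 7533. For each subunit D3TA-1 was lowest of the 6, D3TA-3 and WT-3 were highest, and the groups overlapped.

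The C1qa difference was -0.33 ± 0.47 (SE, n = 3 each), with a 95% interval from -1.36 to 0.70 and an adjusted p of 0.847 in limma. C1qb differed by -0.19 ± 0.50, with an interval from -1.30 to 0.92 and an adjusted p of 0.923 in limma. C1qc differed by -0.09 ± 0.47, with an interval from -1.12 to 0.95 and an adjusted p of 0.966 in limma. The intervals thus reach about a unit of log2 on either side, and differences of that size could not be detected with these libraries. The sign turned with the libraries used. Between the libraries rich in hemoglobin reads the difference was -1.52 for C1qa, -1.44 for C1qb and -1.18 for C1qc, with WT-3 alone for WT. Between those poor in hemoglobin reads it was 0.85, 1.24 and 1.13, with D3TA-3 alone for D3TA. Without D3TA-1 the differences were 0.082, 0.26 and 0.34, and without WT-3 they were 0.076, 0.17 and 0.24.

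The ratios between the subunits varied less over the 6 libraries than their levels did. The ratio of C1qc to C1qb reads ranged from 0.886 to 1.10, and that of C1qa to C1qb reads from 1.24 to 1.84. The ratio of C1qa to C1qc reads ranged from 1.40 to 2.04, while the level of C1qb itself ranged 3.96-fold. Per kilobase of annotated exon, C1qa was above C1qb and C1qb above C1qc in each library, with group means of 7308, 4870 and 2647 in D3TA and 9053, 5064 and 2655 in WT. The exonic lengths are the union over annotated transcripts, which is longer for C1qc (1931 bases) than for C1qa (1040) and C1qb (1088). Pearson's r of the log2 levels over the 6 libraries was 0.99 for C1qb with C1qc, 0.96 for C1qa with C1qb and 0.94 for C1qa with C1qc. Among the other 25 pairs of members, r ranged from -0.73 to 0.88, and the highest was for C1qa with Cfp. These are descriptions over libraries that share scaling and tissue makeup.

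Among 12318 other genes at a mean of 50 normalized counts or more, the 4 whose log2 profile was most like the mean C1q profile over the 6 libraries were Abhd12 (r = 0.99), Slc39a1 (r = 0.99), Il1a (r = 0.98) and Nubp1 (r = 0.98). Abhd12, a lipid hydrolase, was at 644, 1043 and 1958 in D3TA and 1251, 957 and 1913 in WT. Il1a, the cytokine interleukin-1 alpha, was at 38.6, 59.6 and 118 in D3TA and 60.2, 57.1 and 137 in WT. Red pulp macrophage markers followed C1q in part. Adgre1, which encodes F4/80, was at 364, 832 and 991 in D3TA and 1053, 448 and 1568 in WT, and the ratio of C1qb to Adgre1 reads ranged from 4.42 to 9.58. Csf1r, the macrophage growth factor receptor, was at 2701, 3191 and 5269 in D3TA and 5343, 2834 and 3719 in WT. The mean log2 level of the 13 red pulp macrophage markers was 10.02, 10.7 and 10.8 in D3TA and 10.8, 10.3 and 11.5 in WT, a difference of -0.37, and 1 of the 13 was above 0. Its part in the C1q values was not tested.

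**Figure D2:**
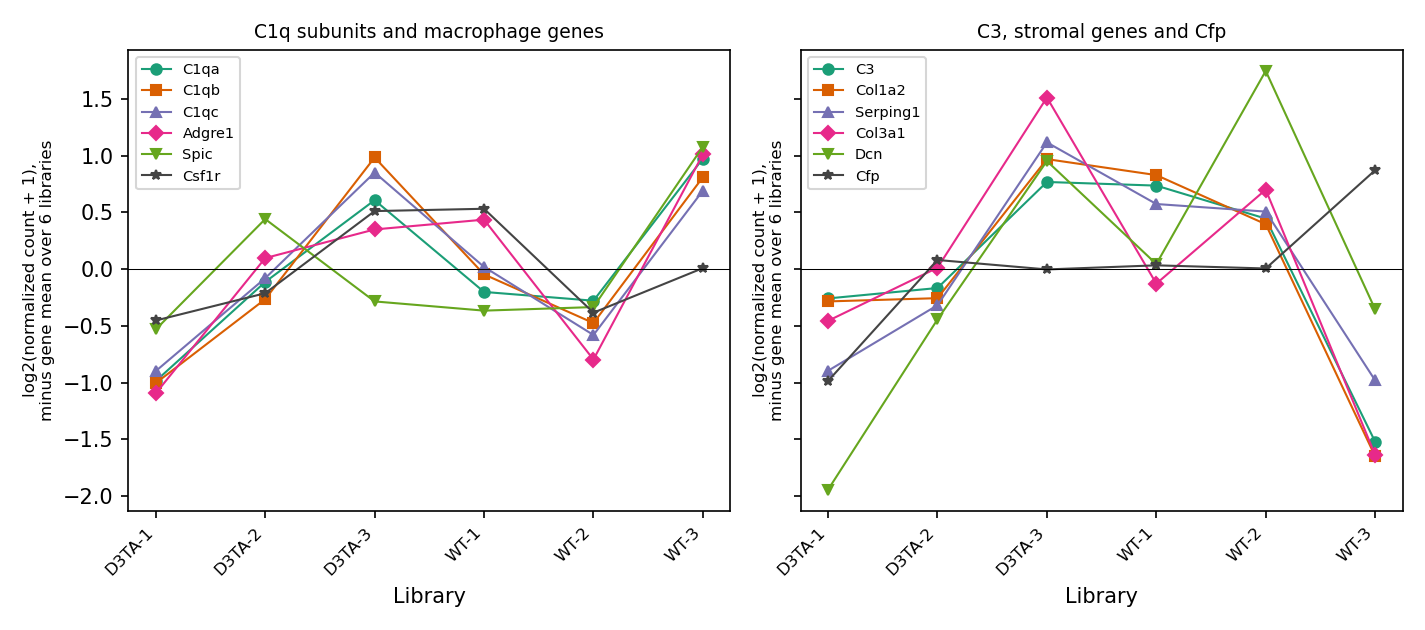
log2(normalized count + 1) of each gene minus its own mean over the 6 libraries, lines joining 1 gene's values: left, the C1q subunits with the macrophage genes Adgre1, Spic and Csf1r; right, C3 with Col1a2, Serping1, Col3a1 and Dcn, and Cfp. The C1q subunits move together and are lowest in D3TA-1, and C3 runs beside Col1a2 and is lowest in WT-3.

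No difference passed the test among the genes of the classical and lectin pathways, C1q included. Of 11 tested genes, 8 lay below 0 and 3 above, the latter being C4a, C4b and Fcnb, and the median difference was -0.33. Over all 15564 genes tested 7078 lay below 0, and the median was 0.06. C2, the protease partner of C4, had a mean of 160 ± 75.4 for D3TA and of 249 ± 106 for WT (SD, n = 3 each). Colec12, a scavenger receptor with a collectin domain, averaged 709 ± 398 and 1039 ± 619. C4b, whose product follows C1 in the cascade, averaged 4326 ± 1992 and 4039 ± 1852, and is named here with its values known. C4a and C4b are near-identical copies, so how reads were divided between them is uncertain.

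Fcnb went the other way. It encodes ficolin B, a lectin pathway recognition molecule made by developing myeloid cells and carried in neutrophil granules. Fcnb was at 1388, 773 and 240 in D3TA and at 39.2, 25.7 and 98.6 in WT, so that every D3TA library lay above every WT library. The fold was 13.4, the log2 difference 3.75 ± 0.67 (SE) and limma's adjusted p 0.0977. DESeq2 on recovered reads gave an adjusted p of 8.94e-08, and without D3TA-3 limma gave 0.00235 with a difference of 4.45. The difference was 2.77 with D3TA-1 and WT-2 both left out. The adjusted p ranged up to 0.460 over the alternatives. Markers of immature neutrophils moved with it: the 5 primary granule markers summed to 7089 to 46194 in D3TA and 1027 to 1804 in WT, and the ratio of Fcnb to Mpo reads lay between 0.0772 and 0.122 in every library but WT-3, where it was 0.297. The part of cell numbers in the Fcnb difference was not tested. Fcna, ficolin A of macrophages, named with its values known, was at 1251, 1744 and 1453 in D3TA and 1418, 776 and 7356 in WT, with overlapping groups.

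C3, the component on which all pathways converge, is on chromosome 17 (ENSMUSG00000024164, 57203970 to 57228136, minus strand). Its promoter window is shown because it held the C/EBP motif TTGCNNAA from 45 to 38 bases before the start, which 9.56% of all windows hold, and C/EBP factors are known to act on acute-phase genes. It also held TGCTGA on the opposite strand from 182 to 177 bases before the start.

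C3, chr17:57228137-57228386, - strand: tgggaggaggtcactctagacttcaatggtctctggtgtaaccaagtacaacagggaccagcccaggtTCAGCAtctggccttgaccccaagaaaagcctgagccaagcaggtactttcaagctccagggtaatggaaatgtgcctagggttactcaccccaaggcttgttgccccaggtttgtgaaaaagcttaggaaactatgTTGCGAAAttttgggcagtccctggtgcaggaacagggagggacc

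C3 was at 7080, 7545 and 14413 in D3TA and at 14097, 11524 and 2952 in WT. WT-3 was lowest of the 6 and D3TA-3 highest, and the groups overlapped. D3TA less WT was 0.23 ± 0.55 (SE), with an interval from -0.999 to 1.46 and an adjusted p of 0.917 in limma. It was -0.48 without WT-3 and -0.10 without D3TA-3.

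The genes most like C3 over the 6 libraries were Col1a2 (r = 0.997), Rapgef1 (r = 0.995), Map4 (r = 0.994) and Sorbs3 (r = 0.993). Col1a2, a fibrillar collagen chain of stromal cells, was at 1206, 1230 and 2876 in D3TA and 2609, 1933 and 468 in WT, with WT-3 lowest as for C3. Rapgef1, Map4 and Sorbs3 were also lowest in WT-3, at 1316, 806 and 166. The 7 stromal and follicular dendritic cell markers had a mean log2 level of 7.84, 8.64 and 9.65 in D3TA and 9.14, 9.69 and 8.06 in WT. That mean was lowest in D3TA-1, not in WT-3. The cause of the low C3 value in WT-3 was not tested. In WT-3 C1qa was at its highest and C3 at its lowest, while C1qb, C1qc and C3 were all highest in D3TA-3. Over the 6 libraries r of C3 was -0.34 with C1qa, -0.13 with C1qb and -0.13 with C1qc.

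The alternative pathway genes did not separate the groups. Cfp (ENSMUSG00000001128, chromosome X, 20925454 to 20931555, minus strand) encodes properdin, which stabilises the C3 convertase. It was at 2142, 4483 and 4231 in D3TA and at 4339, 4256 and 7754 in WT. D3TA-1 was lowest and WT-3 highest, and the other 4 lay between 4231 and 4483. The difference was -0.61 ± 0.38 (SE), with an interval from -1.44 to 0.23 and an adjusted p of 0.644 in limma. Cfp kept its sign under all 22 alternatives, from -0.80 to -0.26. Between the libraries poor in hemoglobin reads the difference was -0.02, and between those rich in them -1.32. The genes most like Cfp over the 6 libraries were Zfp87 (r = 0.997), Alkbh6 (r = 0.994), Tor2a (r = 0.992) and Mfng (r = 0.990).

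Cfb (ENSMUSG00000090231, chromosome 17, 34856374 to 34862518, minus strand) encodes factor B, the protease of the alternative C3 convertase, and was near the detection limit. It was at 3.21, 4.04 and 58.8 in D3TA and at 14.3, 10.1 and 8.70 in WT, from 3 to 68 reads per library. D3TA-1 and D3TA-2 were below all WT libraries and D3TA-3 above them. The difference was -0.12 ± 1.17 (SE), with an interval from -2.71 to 2.46 and an adjusted p of 0.978 in limma. The annotated gene Gm20547 covers 2246 exonic bases of Cfb on the same strand, 79.5% of its exonic length. Gm20547 has no row in the table, and how reads in the shared part were counted is not stated in the sources used here, so the level of Cfb is uncertain. The genes most like Cfb were Zmym1, Gm11560, Dennd2a and Xcr1 (r = 0.99 each). Xcr1, the chemokine receptor of cross-presenting dendritic cells, was at 168, 207 and 585 in D3TA and 287, 290 and 259 in WT.

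Cfd, the gene of factor D, which cuts factor B, is made mainly by fat cells. It was at 5.36, 6.06 and 47.5 in D3TA and at 0, 1048 and 63.8 in WT. WT-2 alone carried most of its reads, and the difference of -1.65 ± 2.01 (SE) became 0.69 without that library.

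None of the complement receptor genes passed the test. Of 10 tested, which include C1qbp and Cd93 as well as the receptors of cleavage fragments, 9 lay above 0 and 1 below, and the median difference was 0.78. Over all 15564 genes tested 8486 lay above 0. The groups did not overlap for 3 of them, all with D3TA above WT, where 8.18% of all tested genes show that pattern.

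C5ar1 (ENSMUSG00000049130, chromosome 7, 16246743 to 16259540, minus strand) encodes the main receptor of C5a, found on neutrophils, monocytes and macrophages. Its promoter window is shown because it is the member with the largest difference. It held TGCTGA from 17 to 12 bases before the start and GAAANNGAA on the opposite strand from 66 to 58 bases before it, the latter in 7.13% of all windows. The GENCODE gene runs to 16259540, beyond the RefSeq start, so both matches lie inside the annotated gene.

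C5ar1, chr7:16259339-16259588, - strand: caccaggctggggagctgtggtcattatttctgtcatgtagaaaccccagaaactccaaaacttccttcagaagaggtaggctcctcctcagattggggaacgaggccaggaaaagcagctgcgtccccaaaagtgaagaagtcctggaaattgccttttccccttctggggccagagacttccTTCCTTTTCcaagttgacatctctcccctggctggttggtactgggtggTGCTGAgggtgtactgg

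C5ar1 was at 480, 288 and 194 in D3TA-1, D3TA-2 and D3TA-3. In WT-1, WT-2 and WT-3 it was at 97.4, 41.4 and 46.4. The lowest D3TA library was above the highest WT library. The means were 321 ± 145 and 61.7 ± 31.0 (SD, n = 3 each). The log2 difference was 2.37 ± 0.49 (SE), with an interval from 1.28 to 3.46, an unadjusted p of 0.000637 and an adjusted p of 0.163 in limma. An unadjusted p under 0.05 was found for 9.91% of all genes tested. The call depended on the test and on 1 library. DESeq2 on recovered reads gave an adjusted p of 0.000566, and 2.54% of its genes had an adjusted p under 0.05. Limma without D3TA-3 gave a difference of 2.68 with an adjusted p of 0.0279, where 1.97% of genes were under 0.05. The adjusted p was 0.157 in edgeR's quasi-likelihood test and ranged up to 0.730 over the alternatives.

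Within sets of libraries the size of the C5ar1 difference varied, while its direction was fixed because the groups do not overlap. It was 2.97 between the libraries rich in hemoglobin reads, with WT-3 alone for WT, and 1.60 between those poor in them, with D3TA-3 alone for D3TA. It was 0.99 between the single libraries with Y-linked reads, D3TA-3 and WT-1, and 3.06 among the other 4. With a term for the hemoglobin-rich libraries in limma it was 2.29 ± 0.51 (SE, adjusted p = 0.217), and with a term for Y-linked reads 2.37 ± 0.51 (adjusted p = 0.184). Mature neutrophil markers moved with it: the 11 markers summed to 75900 to 408731 in D3TA and 12091 to 27806 in WT. For 9 of the 11, every D3TA library was above every WT library, as in 8.18% of all tested genes. The 8 monocyte markers summed to 9819 to 12121 and 4724 to 5453. Of these 8, 4 had every D3TA library above every WT library, the others overlapped, and Cd14 lay below 0. Csf3r, the receptor of granulocyte colony-stimulating factor, was at 1502, 1165 and 749 in D3TA and 518, 206 and 270 in WT. The ratio of C5ar1 to Csf3r reads was 0.320, 0.247 and 0.260 in D3TA and 0.188, 0.201 and 0.172 in WT, a narrower gap than that of C5ar1 itself. The ratio of C5ar1 to Itgam reads was 0.215, 0.233 and 0.510 in D3TA and 0.408, 0.166 and 0.361 in WT, so it overlapped between the groups and ranged 3.08-fold. The part of myeloid cell numbers in the C5ar1 difference was not tested. The genes most like C5ar1 over the 6 libraries were Fancm (r = 0.999), Hjurp (r = 0.995), Pbx3 (r = 0.993) and Rnf214 (r = 0.993). Hjurp, a centromere histone chaperone of dividing cells, was at 3849, 2362 and 1783 in D3TA and 1074, 668 and 734 in WT.

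**Figure D3:**
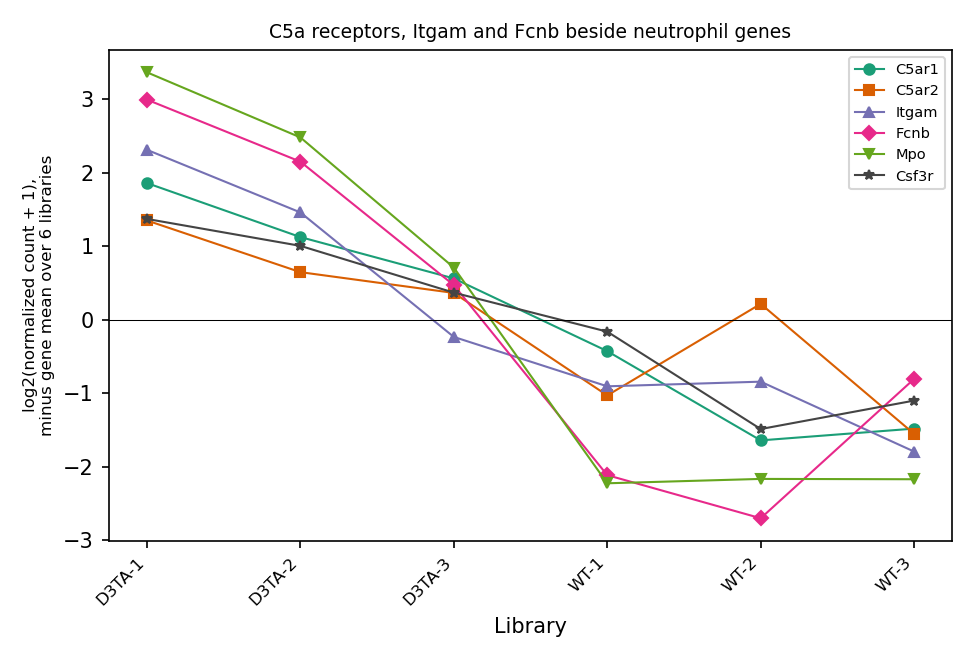
log2(normalized count + 1) minus each gene's mean over the 6 libraries for C5ar1, C5ar2, Itgam and Fcnb beside the neutrophil genes Mpo and Csf3r, lines joining 1 gene's values. C5ar1 and Fcnb lie above 0 in every D3TA library and below 0 in every WT library, and C5ar2 lies above 0 in WT-2.

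C3ar1 (ENSMUSG00000040552, chromosome 6, 122847138 to 122856161, minus strand) encodes the C3a receptor. It was at 32.1, 4.04 and 177 in D3TA and at 22.0, 14.5 and 13.5 in WT. D3TA-3 was highest and D3TA-2 lowest of the 6, so the D3TA libraries lay on both sides of the WT libraries. The difference was 0.84 ± 1.14 (SE), with an interval from -1.68 to 3.36 and an adjusted p of 0.841 in limma, and it was -0.42 without D3TA-3. On recovered reads it was 2.08 in edgeR (adjusted p = 0.558) and 2.09 in DESeq2 (adjusted p = 0.272). The group means were 71.1 in D3TA, with D3TA-3 far above the others, and 16.7 in WT. Cfb and C3ar1 thus shared D3TA-3 as their highest library, as did C1qb, C1qc and C3. The genes most like C3ar1 were Tcp1 (r = 0.97), Znhit6 (r = 0.96), Sfrp1 (r = 0.96) and Tifab (r = 0.96).

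The other receptors gave values on either side. C5ar2, the second C5a receptor, was at 159, 97.0 and 79.5 in D3TA and 29.6, 71.6 and 20.3 in WT, with no overlap and an adjusted p of 0.422 in limma. Itgam, the alpha chain of complement receptor 3 on myeloid cells, was at 2233, 1236 and 381 in D3TA and 239, 250 and 129 in WT. It differed by 2.36 ± 0.57 (SE), and its adjusted p was 0.232 in limma, 0.000224 in DESeq2 and 0.00311 in limma without D3TA-3, where the difference was 3.07. Without D3TA-1 the difference was 1.79. Cr2, the complement receptor of B cells and follicular dendritic cells, lay below 0. It was at 616, 1970 and 1800 in D3TA and 4872, 4244 and 1818 in WT, with a difference of -1.37 ± 0.50 (SE) and an adjusted p of 0.414 in limma. The 8 B cell markers, Cr2 among them, all lay below 0. For 5 of them every D3TA library was below every WT library, as in 6.84% of all tested genes.

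Of 7 genes of the terminal pathway, which assembles the membrane attack complex, 4 were tested. These were Hc, C6, C7 and C8g, all above 0, and 0 passed. Hc met the filter for testing only through its D3TA libraries, so its place above 0 was fixed in advance. Hc, the gene of C5, had 35.3, 19.2 and 33.7 in D3TA and 0 in all 3 WT libraries. Against a floor of 3 reads in each WT library, its mean in D3TA was at least 9.67-fold higher. Its adjusted p was 0.232 in limma and 0.000357 in DESeq2. Hc is best known as a liver product, and traces of liver transcripts were present: Alb, which encodes albumin, was at 129, 99.99 and 121 in D3TA and at 0.955, 250 and 0 in WT. WT-2 held the most Alb and no Hc reads. The part of liver transcripts in the Hc values was not tested. C6 had a mean of 401 ± 131 for D3TA and of 320 ± 166 for WT, and C7 averaged 32.7 ± 22.3 and 22.9 ± 19.1 (SD, n = 3 each).

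The regulators, which protect the body's own cells from complement, were split. Of 10 tested genes 4 lay above 0 and 6 below, 0 passed, and the median difference was -0.12. Cd55, the decay-accelerating factor that breaks up C3 convertases, was at 679, 920 and 683 in D3TA and 1829, 1494 and 3411 in WT. Every D3TA library was below every WT library, a pattern of 6.84% of all tested genes. Cd55 differed by -1.48 ± 0.35 (SE), and its adjusted p was 0.226 in limma and 0.00945 in DESeq2. Cd55 has a close copy, Cd55b, which was at no more than 1.93 in any library, and how reads that fit both were counted is not stated. Clu, which encodes clusterin, an inhibitor of the terminal complex and a product of follicular dendritic cells, was at 4221, 10179 and 14599 in D3TA and 23757, 22722 and 8452 in WT, with overlapping groups and an adjusted p of 0.594 in limma. Cd46, a cofactor for C3b cleavage, averaged 35.0 ± 12.7 and 18.1 ± 4.58 with no overlap, and its adjusted p was 0.701 in limma.

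**Figure D4:**
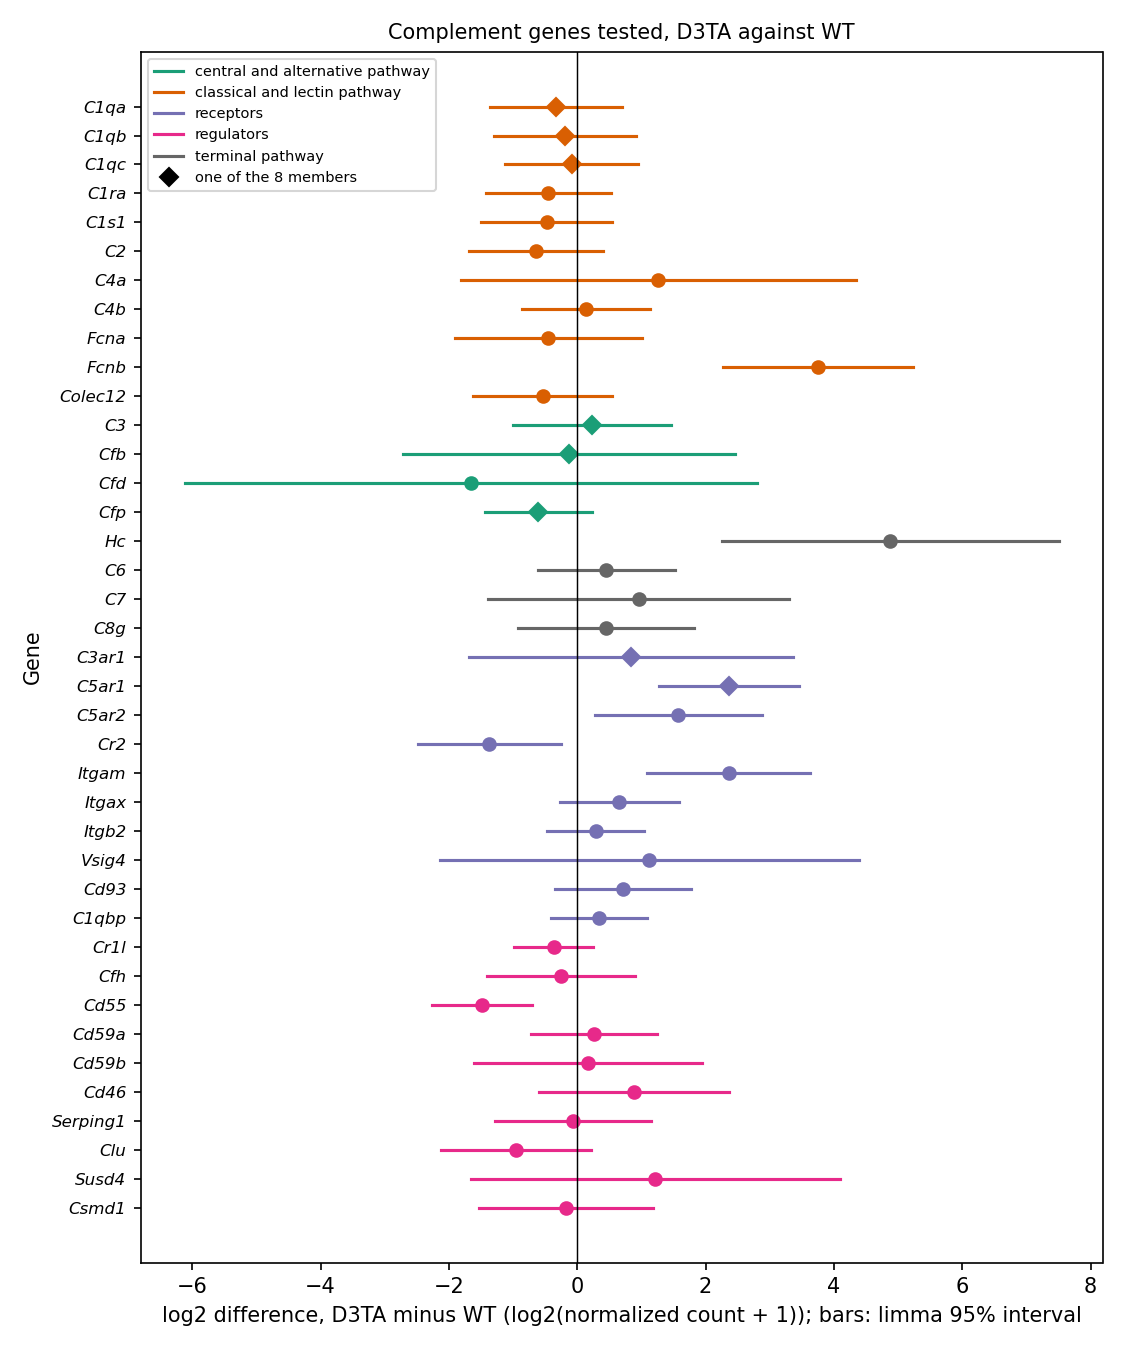
log2 difference, D3TA minus WT, with limma's 95% interval for the 39 complement genes tested, coloured by step of the pathway, diamonds marking the 8 members. The C1q, C3 and Cfp intervals include 0, and those of C5ar1, Fcnb, Hc, Itgam and C5ar2 lie above it while those of Cd55 and Cr2 lie below it, before adjustment over all genes.

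Over the wider complement list of 57 genes, 53 were in the table and 39 were tested. Of these, 21 lay above 0 and 18 below, the median difference was 0.17, and it was the same with Hc set to its lower bound. Hc was tested only through its D3TA libraries, so its place above 0 is no result. Over all genes tested, 8486 lay above 0 and 7078 below. With limma 0 of the 39 passed, and 7 had an unadjusted p under 0.05, against 9.91% of all genes tested. DESeq2, which keeps genes by its own filter, called 5 of the list, C5ar1, Fcnb, Hc and Itgam higher and Cd55 lower in D3TA, where 2.54% of its 18588 genes were called. Among the 8 members 3 lay above 0 and 5 below, with a median of -0.11, which was -0.62 without D3TA-3 and 0.38 without D3TA-1. Of the members 1 of 8, C5ar1, did not overlap between groups, with D3TA above WT as in 8.18% of all tested genes.

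Per kilobase of exon, the members kept a similar order in both groups. In WT the means ran from C1qa (9053) through C1qb (5064), Cfp (3139), C1qc (2655) and C3 (1852) to C5ar1 (24.0), Cfb (3.91) and C3ar1 (3.88). In D3TA they ran from C1qa (7308) through C1qb (4870), C1qc (2647), Cfp (2084) and C3 (1882) to C5ar1 (125), C3ar1 (16.5) and Cfb (7.79). From C1qa down to C3, the range of each gene over the libraries of a group overlapped that of the next, as did the ranges of Cfb and C3ar1, so these ranges do not separate neighbours. Within each library, however, C1qa was above C1qb and C1qb above C1qc. C5ar1 lay apart from its neighbours on both sides, at 16.1 to 37.9 in WT and 75.7 to 187 in D3TA.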

How the data were processed

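The 6 libraries came from spleen cells, 3 of D3TA and 3 of WT mice. Per the labels' protocols, poly-T beads and random hexamer priming were used, and a step that marks the strand is not mentioned. The tools in the submitters' processing notes are HISAT2, DESeq2, Trim Galore, FastQC and CASAVA, with the build mm10, and the counting program and annotation are not given in the sources used here. The deposited values, titled as raw counts, are a signal: read counts that the authors had scaled by 1 size factor per library, as the values themselves show. All 149436 values (100%) were whole multiples of a library's step (0.864 to 1.12), with a tolerance of 0.001 reads that widened in proportion above 1000 reads, and 3 reads correspond to 2.59 to 3.36. Such floors cover counting error only. Nothing says more of the replicates than 1 library per sample, so p-values measure the spread between these samples.

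Genes reaching a normalized count of 10 in 3 or more libraries (15564) entered the fit, made on log2(normalized count + 1) in limma 3.58.1 (trend, robust), genotype as the factor, adjusted by Benjamini-Hochberg at 0.05, 2-sided. Count tests on recovered reads (edgeR 4.0.16, DESeq2 1.42.0, limma-voom), other scalings, filters and pseudocounts, left-out libraries, a replicate block and terms for hemoglobin and Y-linked reads were alternatives. Named genes were the 8 members, the 3 other tested genes with the smallest p in each step of a fixed complement list, and the 4 genes with the highest Pearson r to a member's profile. Any other gene is named as chosen after its values were seen, as a marker of a cell type list or for an overlap. Members, lists and tests were chosen with earlier results of these data known, and the 6 motifs after the values were seen. Symbols and coordinates came from GENCODE M21 on GRCm38, which held 24895 of 24906 gene identifiers. Ccl19 names more than 1 row and was left out of its marker list. Promoter sequences came from RefSeq's GRCm38.p6, where 6 of 8 members matched. The fit was also run on simulated counts with a dispersion common to all genes. Such counts are simpler than these data, so that run checks the code only. R 4.3.3, Python 3.11.15 and matplotlib 3.10.9 were used.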

Additional observations from a re-analysis of the deposited data

How the results depend on the processing

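With limma on the deposited scaling, 0 of the 8 members and 0 of the 39 tested genes of the wider list were called. DESeq2 called 1 member and 5 of the wider list, with 2.54% of all its genes called. Leaving out 1 library gave 0 to 1 members and 0 to 3 of the wider list, the higher numbers without D3TA-3, where 1.97% of all genes were called. The fit without a filter on low values (0.177% called) and that with a hemoglobin term (0.0707% called) each called 1 of the wider list, Fcnb. The replicate block called 0 of either, with C5ar1 at an adjusted p of 0.171 in limma. Same-numbered libraries did not deviate together (correlations of -0.057, -0.0046 and -0.13). With 3 libraries per group, each taken less its group mean, these correlations cannot exclude a pairing of the mice. Over single left-out libraries the differences ran from -0.71 to 0.082 for C1qa, -0.73 to 0.26 for C1qb, -0.53 to 0.34 for C1qc, -0.48 to 0.65 for C3, -1.36 to 0.56 for Cfb, -0.42 to 2.15 for C3ar1, -4.33 to 0.69 for Cfd, -0.10 to 0.77 for C6, -0.22 to 1.67 for C7, -0.96 to -0.086 for Colec12, 3.19 to 4.45 for Fcnb and 1.79 to 3.07 for Itgam. Cfb also turned to 0.99 in edgeR, 1.003 in DESeq2, 0.082 with a pseudocount of 5 and 0.56 when hemoglobin-rich libraries had a term. With D3TA-1 and WT-2 both left out, Cfb was at 0.51, C1qc at 0.030, Colec12 at 0.30 and Cfd at 1.20. The cause of these turns was not tested, beyond the libraries left out. C5ar1, Fcnb, Itgam, Hc, C5ar2, Cfp, C2, Cr2, Cd55, Clu and Cd46 kept their direction under every alternative run. For C5ar1, Fcnb, Itgam, Hc, C5ar2, Cd55 and Cd46 the groups do not overlap, so leaving out libraries could not turn the sign. The median over the members, -0.11, was -0.62 to 0.38 over single left-out libraries, 0.27 with a hemoglobin term, 0.27 with D3TA-1 and WT-2 left out and 0.0093 in DESeq2. The median of all genes, 0.06, was 0.15 with library size scaling and -0.026 with upper quartile scaling. Depth limits Cfb and C3ar1, with as few as 3 and 4 reads in a library.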
